A study of Mus musculus with 8 samples.

Results

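The genes described here control how mitochondria of the intestinal epithelium handle ketone bodies and pyruvate. The 7 members were given as a list of symbols and found by gene ID in each of 8 gene tables, and they make up 7 of the 37620 genes listed there. Bdh1, Acat1 and Oxct1 act on ketone bodies, Mpc1 and Mpc2 form the mitochondrial pyruvate carrier, and Pdha1 and Pdk4 belong to the pyruvate dehydrogenase step. RNA was sequenced from mouse small intestinal epithelium whose cells were sorted by their CD24, a glycoprotein of the cell surface found on crypt cells and little on villus cells. The 4 libraries of CD24Mid (numbers 1, 3, 5 and 7) came from cells with intermediate CD24. The 4 libraries of CD24Neg (numbers 2, 4, 6 and 8) came from cells without it. Both groups had been depleted of cells positive for CD45, an antigen of leukocytes, and of cells that bind Ulex lectin, which stains secretory cells, and neither group was treated. Strain, age, sex and any pooling of animals were not given in the sources used here. The submitters call the libraries biological replicates.

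Ketone bodies are made in mitochondria from acetyl-CoA. Bdh1 interconverts acetoacetate and beta-hydroxybutyrate, which are their main forms in blood. Cells that burn ketone bodies need Oxct1, which transfers CoA to acetoacetate, and Acat1, a thiolase that works in both directions of the route. Pyruvate from glycolysis crosses the inner mitochondrial membrane through a carrier that needs both Mpc1 and Mpc2, and the pyruvate dehydrogenase complex, of which Pdha1 is the catalytic alpha subunit, turns it into acetyl-CoA. Pdk4 is one of the kinases that switch this complex off, and it is a target of PPAR nuclear receptors that is induced by fasting. In the intestine, stem cells of the crypt base are known for low pyruvate carrier activity.

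The sequences just upstream of annotated start sites are shown for 4 members. Mpc1 and Mpc2 are shown because the partner subunits of one carrier differed in their change, Bdh1 because it has more than one start site and its deposited effective length differed between groups, and Pdk4 because it varied most among libraries. Each run is the 250 bases before the start site, 5′ to 3′, from RefSeq on build GRCm38.p6. The deposited tables rest on an earlier build, so these positions are not those of the tables. Capitals mark matches on either strand to 4 motifs, namely the nuclear receptor half-site AGGTCA, the CCAAT box CCAAT, the GC box GGGCGG and the E-box CACGTG.
Mpc1, first start site (chr17:8283537-8283786, plus strand): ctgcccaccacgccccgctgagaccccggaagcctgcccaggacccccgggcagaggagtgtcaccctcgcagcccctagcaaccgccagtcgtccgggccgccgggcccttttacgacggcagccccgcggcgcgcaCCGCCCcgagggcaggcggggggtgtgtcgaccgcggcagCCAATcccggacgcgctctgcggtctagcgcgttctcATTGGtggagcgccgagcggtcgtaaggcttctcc
Mpc2 (chr1:165461010-165461259, plus strand): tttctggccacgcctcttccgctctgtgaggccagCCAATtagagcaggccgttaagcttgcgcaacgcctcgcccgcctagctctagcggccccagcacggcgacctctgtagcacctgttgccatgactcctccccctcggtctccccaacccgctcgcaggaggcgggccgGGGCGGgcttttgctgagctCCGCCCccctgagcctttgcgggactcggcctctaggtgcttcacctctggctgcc
Bdh1, first start site (chr16:31422047-31422296, plus strand): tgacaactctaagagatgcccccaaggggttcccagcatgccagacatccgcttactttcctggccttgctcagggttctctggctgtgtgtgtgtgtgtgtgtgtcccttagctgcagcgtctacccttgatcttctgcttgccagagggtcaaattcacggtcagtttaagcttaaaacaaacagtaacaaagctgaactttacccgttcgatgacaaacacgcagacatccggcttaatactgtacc
Bdh1, second start site (chr16:31428503-31428752, plus strand): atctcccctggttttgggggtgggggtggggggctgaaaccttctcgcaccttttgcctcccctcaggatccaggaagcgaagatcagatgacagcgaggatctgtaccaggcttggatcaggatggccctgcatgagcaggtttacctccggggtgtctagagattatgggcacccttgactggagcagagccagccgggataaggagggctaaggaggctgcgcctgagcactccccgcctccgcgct
Pdk4 (chr6:5496279-5496528, minus strand): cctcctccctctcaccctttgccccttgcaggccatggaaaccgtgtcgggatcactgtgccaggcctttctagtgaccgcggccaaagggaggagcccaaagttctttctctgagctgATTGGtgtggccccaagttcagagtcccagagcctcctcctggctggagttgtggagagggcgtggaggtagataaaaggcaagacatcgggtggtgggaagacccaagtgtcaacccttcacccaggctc

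A window was found for 6 of the 7 members, with 8 windows in all. Acat1 had none. The first Mpc1 window held 2 CCAAT boxes and 1 GC box, and the Mpc2 window 1 CCAAT box and 2 GC boxes. A second Mpc1 window, not printed, held 1 half-site, the only one in the 8 windows, and 1 GC box. The Pdk4 window held 1 CCAAT box. Neither Bdh1 window held any of the 4 motifs, and the same was true of Oxct1 and Pdha1. Of 32851 windows of this length, 33.8% held a CCAAT box, 32.7% a GC box, 14% a half-site and 6.02% an E-box. The matches are a description of the letters, and overlaps between motifs were allowed.

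Libraries held 11340782 to 18928233 reads unique to 1 gene. The sort was visible in its own marker: Cd24a averaged 194 ± 43.4 CPM in the CD24Mid libraries against 28.5 ± 8.36 CPM in the others (SD, n = 4 each). CPM are read counts divided by the library total after TMM scaling, which aligns the bulk of genes between libraries. The labelled epithelial origin held, with Epcam at 1218 to 1481 CPM over all 8 libraries. All 8 absorptive enterocyte markers were higher in CD24Neg, and all 6 crypt base stem cell and all 6 dividing cell markers were higher in CD24Mid. Markers of other cells also differed. The 6 T and NK lymphocyte markers summed to 3.55 to 12.2 CPM in CD24Mid and 27.1 to 498 CPM in CD24Neg, where libraries 2 and 8 were highest. Ptprc, the gene of CD45, was at 2.23 to 9.12 CPM in CD24Mid and 2.775 to 38.15 CPM in CD24Neg. It was called higher in CD24Neg (log2 fold change -1.72, edgeR adjusted p = 0.039), but not without CD24Neg 2 and 8 (-0.073, edgeR adjusted p = 0.92). The 6 goblet cell markers summed to 3180 to 5079 CPM in CD24Mid and 12100 to 34130 CPM in CD24Neg, and the 6 B and plasma cell markers to 393 to 1008 CPM and 21.9 to 53.5 CPM. The 6 enteroendocrine cell markers summed to 252.5 to 557 CPM in CD24Mid and 75.5 to 111 CPM in CD24Neg. Fibroblast and smooth muscle markers stayed at or under 1.14 CPM in sum, and Adipoq, Plin1 and Lep of the adipocyte list had no read. The fourth gene of that list, Cidec, which coats lipid droplets, was at 1.89 to 7.22 CPM in CD24Mid and 46.7 to 61.7 CPM in CD24Neg. In such bulk samples, fewer cells of a type and less RNA per cell cannot be told apart.

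The comparison of CD24Mid with CD24Neg asks how these genes differ between crypt cells and differentiated villus cells. Among the 7 members, Mpc1 and Pdk4 were higher in CD24Neg, Bdh1 was higher in CD24Mid, and Oxct1, Acat1, Mpc2 and Pdha1 did not pass the test. The test was edgeR's quasi-likelihood test, called at a Benjamini-Hochberg adjusted p under 0.05 among 12840 genes. All 7 members passed its filter on low counts. The groups are so unlike that 69.8% of all genes tested were called, 35.5% higher in CD24Mid and 34.3% higher in CD24Neg. The members, with 3 of 7 called, did not exceed that background. The values of the groups did not overlap for 2 of the 7, Mpc1 and Bdh1, against 64.4% of all genes tested. The median log2 fold change of the members was -0.23, beside 0.015 for all genes.

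**Figure D1:**
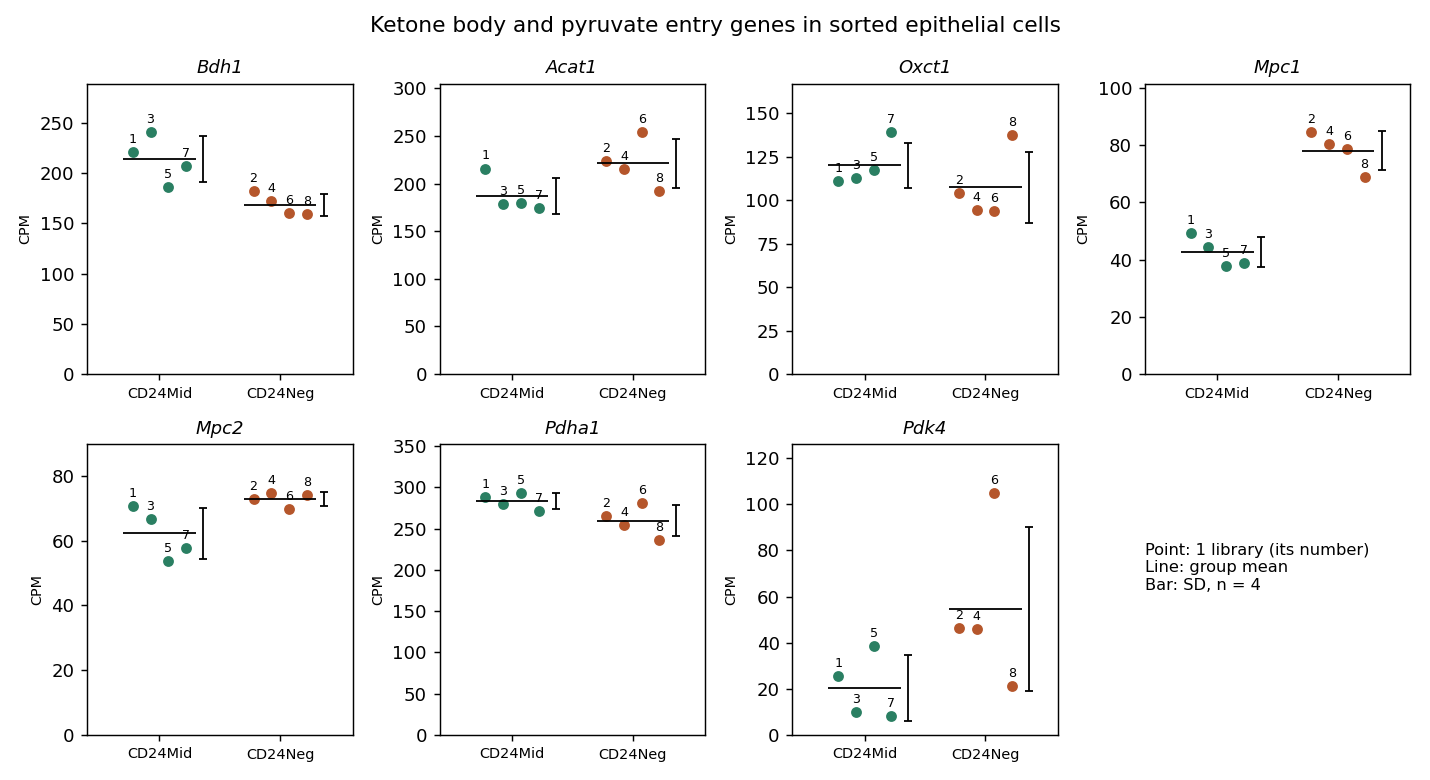
CPM of the 7 member genes in each library, with points labelled by library number, lines at the group mean and bars for the SD (n = 4 each). Mpc1 separates the groups widely and Bdh1 by a narrow gap, while the Pdk4 points spread from 8.04 to 38.6 CPM in CD24Mid and from 21.1 to 105 CPM in CD24Neg.

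Mpc1 (ENSMUSG00000023861), the subunit of the pyruvate carrier that pairs with Mpc2, was at 49.2, 44.3, 37.8 and 38.8 CPM in CD24Mid libraries 1, 3, 5 and 7. In CD24Neg libraries 2, 4, 6 and 8 it was at 84.5, 80.2, 78.7 and 68.7 CPM. Every CD24Neg library was above every CD24Mid library. The difference was 1.83-fold (log2 fold change -0.88 ± 0.12 SE, edgeR adjusted p = 4.96e-05). It stayed between -0.95 and -0.80 when single libraries were left out, and without CD24Neg 2 and 8, which held the most lymphocyte reads, it was -0.89 (edgeR adjusted p = 0.000286). On library totals without scaling it turned to 0.062 and did not pass (edgeR adjusted p = 0.61).

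Mpc2 (ENSMUSG00000026568), the other subunit, was at 70.7, 66.8, 53.6 and 57.8 CPM in CD24Mid and at 72.9, 74.8, 69.6 and 74.1 CPM in CD24Neg. The groups overlapped through CD24Mid library 1, and CD24Neg varied little. The log2 fold change of -0.23 ± 0.11 SE did not pass (edgeR adjusted p = 0.080, 95% interval -0.46 to 0.01). Without CD24Mid replicate 1 it passed in the same direction (log2 fold change -0.29, edgeR adjusted p = 0.031).

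The 2 carrier subunits were compared directly by their ratio within each library, which does not depend on how libraries are scaled. The Mpc1 to Mpc2 ratio of reads per kilobase of effective length was 0.598, 0.568, 0.630 and 0.585 in CD24Mid. It was 1.03, 0.942, 0.945 and 0.815 in CD24Neg. The 2 ranges were well apart, and the mean log2 ratio was lower in CD24Mid by 1.56-fold. The exact two-sided permutation test gave p = 0.0286, the smallest that 4 libraries against 4 can give, and adjusted over the 6 ratios tested it was 0.0857, above the threshold. A ratio could pass this adjustment only if several others also reached the smallest p. Counting only gene-unique reads lowers the level of Mpc1 relative to Mpc2. Its estimated reads, which include reads shared with other genes, were 1.18 to 1.22 times the unique reads over the 8 libraries, against 0.989 to 0.993 times for Mpc2. On estimated reads the ratio was 0.723 ± 0.036 in CD24Mid and 1.12 ± 0.12 in CD24Neg (SD, n = 4 each). The level of the ratio therefore moved with the way reads were counted, and the difference between groups hardly did (log2 -0.65 and -0.63).

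Pdha1 (ENSMUSG00000031299), the substrate of the kinases at the gate of the citrate cycle, was the steadiest member. It was at 288, 280, 293 and 272 CPM in CD24Mid and at 266, 255, 281 and 236 CPM in CD24Neg. The groups overlapped, and the log2 fold change of 0.13 ± 0.10 SE did not pass (edgeR adjusted p = 0.27, 95% interval -0.09 to 0.35). The spread of its log2 CPM within groups was 0.082 (SD), with 2.96% of genes tested below it. The Mpc1 to Pdha1 ratio per kilobase rose from 0.501 ± 0.058 in CD24Mid to 1.01 ± 0.058 in CD24Neg (SD, n = 4 each) with no overlap (exact permutation p = 0.0286, adjusted p = 0.0857), so that Mpc1 transcripts were about level with the alpha subunit in CD24Neg and below it in CD24Mid.

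Pdk4 (ENSMUSG00000019577), the fasting-induced kinase of pyruvate dehydrogenase, had the widest range. It was at 25.3, 9.99, 38.6 and 8.04 CPM in CD24Mid libraries 1, 3, 5 and 7. It was at 46.2, 46.0, 105 and 21.1 CPM in CD24Neg libraries 2, 4, 6 and 8. Libraries 5 and 6 were the highest of their groups and libraries 7 and 8 the lowest, and the groups overlapped. Group means were 20.5 ± 14.3 CPM for CD24Mid against 54.6 ± 35.6 CPM for CD24Neg (SD, n = 4 each), a difference of 2.68-fold (-1.42 ± 0.56 SE on the log2 scale, edgeR adjusted p = 0.041). This call was fragile. It was lost when any one of CD24Mid 1, 3 or 7 or CD24Neg 2, 4 or 6 was left out (edgeR adjusted p = 0.064 to 0.20), with the size falling to -0.82 without CD24Neg 6 and reaching -1.93 without CD24Mid 5. DESeq2 gave an adjusted p of 0.051. The Pdk4 to Pdha1 ratio per kilobase was 0.057 ± 0.039 in CD24Mid and 0.16 ± 0.097 in CD24Neg, and the groups overlapped (exact permutation p = 0.0571, adjusted p = 0.114).

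Among the other kinases, Pdk2 and Pdk1 were called in opposite directions and Pdk3 was not called. Pdk2, a widely expressed kinase, was at 60.4, 60.1, 44.7 and 35.6 CPM in CD24Mid and at 141, 138, 176 and 90.4 CPM in CD24Neg. It was 2.72-fold higher in CD24Neg (edgeR adjusted p = 0.000149), with no overlap. Pdk1, a kinase known for its induction in hypoxia, was 1.42-fold higher in CD24Mid (66.9 ± 2.83 against 47.2 ± 4.96 CPM, SD, n = 4 each, edgeR adjusted p = 0.000961). Pdk3 was level at 25.2 ± 0.69 and 25.3 ± 2.26 CPM (-0.0025 ± 0.10 SE on the log2 scale, edgeR adjusted p = 0.98). Per kilobase of effective length, Pdk2 had the highest mean of the 4 kinases in both groups, at 28.9 CPM per kilobase in CD24Mid and 77.2 in CD24Neg. Pdk4 made up 10.97%, 4.61%, 18.5% and 4.52% of kinase reads per kilobase in CD24Mid and 12.5%, 13.1%, 22.2% and 8.54% in CD24Neg. These shares overlapped and did not pass the exact permutation test (p = 0.257, adjusted p = 0.257).

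**Figure D2:**
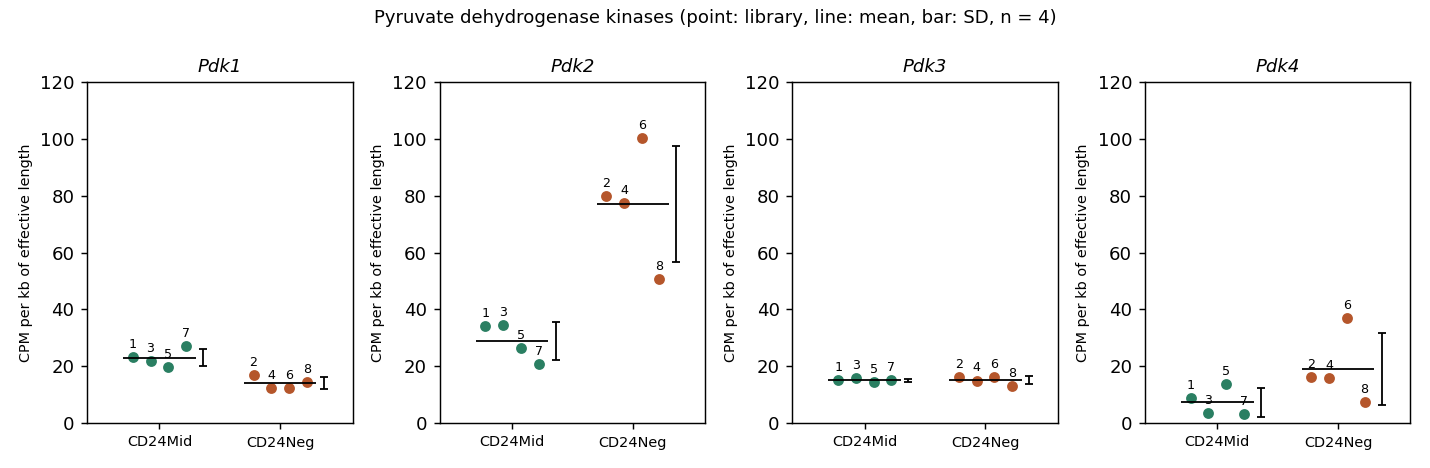
CPM per kilobase of effective length for the 4 pyruvate dehydrogenase kinases in each library (points, labelled by library number), with group means (lines) and SD (bars, n = 4 each), on one shared axis. Pdk2 has the highest mean in both groups, although Pdk1 exceeds it in CD24Mid 7, Pdk3 is flat at about 15.1, and Pdk4 has the lowest mean in CD24Mid (7.27) and the second highest in CD24Neg (19.1).

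Calls in the complex, phosphatase and lipoate genes stand beside 69.8% of all genes called, 35.5% higher in CD24Mid and 34.3% higher in CD24Neg. Of 5 complex genes measured, 1 was higher in CD24Mid and 0 in CD24Neg, with a median log2 fold change of -0.018. The one called was Pdhx, which anchors the E3 subunit (34.4 ± 0.71 against 23.6 ± 2.09 CPM, SD, n = 4 each, edgeR adjusted p = 0.000495). Pdhb, the beta subunit, Dlat, the acetyltransferase core, and Dld, the E3 subunit shared with other dehydrogenases, had log2 fold changes of -0.13, -0.018 and -0.27, and none passed (edgeR adjusted p = 0.33, 0.88 and 0.073). The testis form Pdha2 had no read in any library. Phosphatases switch the complex back on, and 3 genes of their subunits were measured. The catalytic Pdp1 and the regulatory Pdpr had 1.72-fold and 1.39-fold more in CD24Mid, while the catalytic Pdp2 had 1.36-fold more in CD24Neg (edgeR adjusted p = 0.013, 0.040 and 0.016). The Pdp1 call was lost on estimated reads (edgeR adjusted p = 0.062), that of Pdp2 without CD24Neg 6 or 8, and that of Pdpr without CD24Mid 5 or 7 or any of CD24Neg 2, 6 and 8. Of the 3 genes that make or attach lipoate, the cofactor of the complex, 2 were higher in CD24Mid. This is near the 69.8% of all genes called. Lipt2, which loads the octanoyl group, was 7.56-fold higher at 16.3 ± 4.12 against 2.24 ± 1.23 CPM, and Lipt1, which transfers lipoate between proteins, was 2.04-fold higher (edgeR adjusted p = 2.42e-05 and 0.00118).

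Genes on either side of the pyruvate step leaned to CD24Neg. Of 9 measured genes for other fates and sources of pyruvate, 7 were higher in CD24Neg and 0 in CD24Mid, with a median log2 fold change of -1.12. The largest were Gpt, which converts alanine to pyruvate (24.8-fold, 314 ± 34.8 against 12.7 ± 2.75 CPM), Pcx, which carboxylates pyruvate (5.13-fold), and Pklr, a pyruvate kinase (3.21-fold). Of 16 citrate cycle genes, 10 were higher in CD24Neg and 1 in CD24Mid, with a median of -0.58. The 11 called are close to the 69.8% called among all genes, and the 10 stand beside 34.3% of all genes higher in CD24Neg. Ogdh, Mdh2 and Dlst were 3.53-fold, 2.87-fold and 2.50-fold higher in CD24Neg, and Suclg2, a subunit of succinyl-CoA ligase, 1.38-fold higher in CD24Mid. The highest edgeR adjusted p among these genes was 0.00102. The log2 fold change of Mpc1 (-0.88) lay between those of the citrate cycle list as a whole and of the pyruvate list, while that of Pdha1 (0.13) lay above both medians.

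Transport of ketone bodies, lactate and pyruvate across the cell membrane changed in each of its 6 measured genes, beside 69.8% of all genes called. The monocarboxylate carrier Slc16a1, which takes lactate, pyruvate and ketone bodies, was 1.52-fold higher in CD24Mid (200 ± 9.40 against 132 ± 9.38 CPM, SD, n = 4 each). The other 5 were higher in CD24Neg, as were 34.3% of all genes. Slc16a3, a lactate exporter, was 15.8-fold higher there, Slc16a6, a carrier linked to ketone body export in liver, 3.27-fold, and Bsg, the chaperone of these carriers, 1.67-fold. Slc5a8, a sodium-coupled carrier, was 14.1-fold higher, and Slc5a12 had 19 reads in the 4 CD24Mid libraries and 2862 in the 4 CD24Neg libraries. The highest edgeR adjusted p of the 6 was 0.000922. On unscaled totals Bsg turned to 0.19 and did not pass.

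Bdh1 (ENSMUSG00000046598), the beta-hydroxybutyrate dehydrogenase, was at 221, 241, 186 and 207 CPM in CD24Mid libraries 1, 3, 5 and 7. It was at 182, 172, 161 and 159 CPM in CD24Neg libraries 2, 4, 6 and 8. The groups did not overlap, although the lowest CD24Mid library and the highest CD24Neg library were close. The mean of CD24Mid was 1.27-fold above that of CD24Neg (0.35 ± 0.11 SE on the log2 scale, edgeR adjusted p = 0.015). On estimated reads the difference shrank to 0.24 and did not pass (edgeR adjusted p = 0.085). The estimated reads were 1.02 to 1.14 times the unique reads in CD24Neg and 0.9975 to 0.9998 times in CD24Mid.

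The effective length of Bdh1 also differed between groups. The authors' tables gave 1210 to 1379 bases in CD24Mid and 1514 to 1827 bases in CD24Neg, with no overlap, whereas the other 6 members overlapped. Among all genes with a value in every library, 7.89% did not overlap. An exact permutation test, chosen after these values were seen, gave p = 0.0286 for Bdh1, or 0.2 adjusted over the 7 members. As 0.0286 is the smallest p this test can give, 1 gene alone could not pass after adjustment, whatever its separation. GENCODE M21 lists 4 protein-coding Bdh1 transcripts of 807 to 3122 bases, and the upstream sequences of 2 start sites are printed above. Division by effective length widened the gap, to 163 ± 14.4 CPM per kilobase in CD24Mid and 102 ± 9.37 in CD24Neg (SD, n = 4 each), a log2 difference of 0.68. Which transcripts were present was not tested, as the tables are per gene.

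Acat1 (ENSMUSG00000032047), the mitochondrial thiolase, was at 216, 179, 179 and 175 CPM in CD24Mid and at 224, 215, 254 and 192 CPM in CD24Neg. CD24Mid library 1 lay inside the CD24Neg range, and the log2 fold change of -0.24 ± 0.12 SE did not pass (edgeR adjusted p = 0.092, 95% interval -0.51 to 0.02). Without CD24Mid replicate 1 it passed (log2 fold change -0.32, edgeR adjusted p = 0.031).

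Oxct1 (ENSMUSG00000022186), the CoA transferase needed to burn ketone bodies, was at 111, 113, 117 and 139 CPM in CD24Mid and at 104, 94.2, 93.7 and 137 CPM in CD24Neg. Libraries 7 and 8 were the highest of their groups, and CD24Neg 8 exceeded 3 of the 4 CD24Mid libraries. The log2 fold change of 0.16 ± 0.14 SE did not pass (edgeR adjusted p = 0.32, 95% interval -0.15 to 0.47). It was 0.35 without CD24Neg 8 (edgeR adjusted p = 0.031) and 0.37 without CD24Neg 2 and 8, the libraries rich in lymphocyte reads (edgeR adjusted p = 0.049). Without CD24Neg 2 alone, which had the most lymphocyte reads, it was 0.19 (edgeR adjusted p = 0.32). The testis relatives Oxct2a and Oxct2b were below 1 CPM in every library.

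As ratios within a library, Bdh1 to Oxct1 was 4.17, 4.42, 3.37 and 3.40 in CD24Mid and 2.76, 3.47, 3.22 and 1.53 in CD24Neg per kilobase. Acat1 to Oxct1 was 2.51, 2.15, 1.89 and 1.49 in CD24Mid and 2.88, 2.95, 3.44 and 1.66 in CD24Neg. Both overlapped between groups, with CD24Neg 8 the lowest of its group in each. Neither passed (exact permutation p = 0.0857 and 0.171, adjusted p = 0.129 and 0.206). The size of the Bdh1 to Oxct1 difference moved with the way reads were counted. It was log2 0.54 as given, 0.37 on estimated reads and 0.17 with no division by length.

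**Figure D3:**
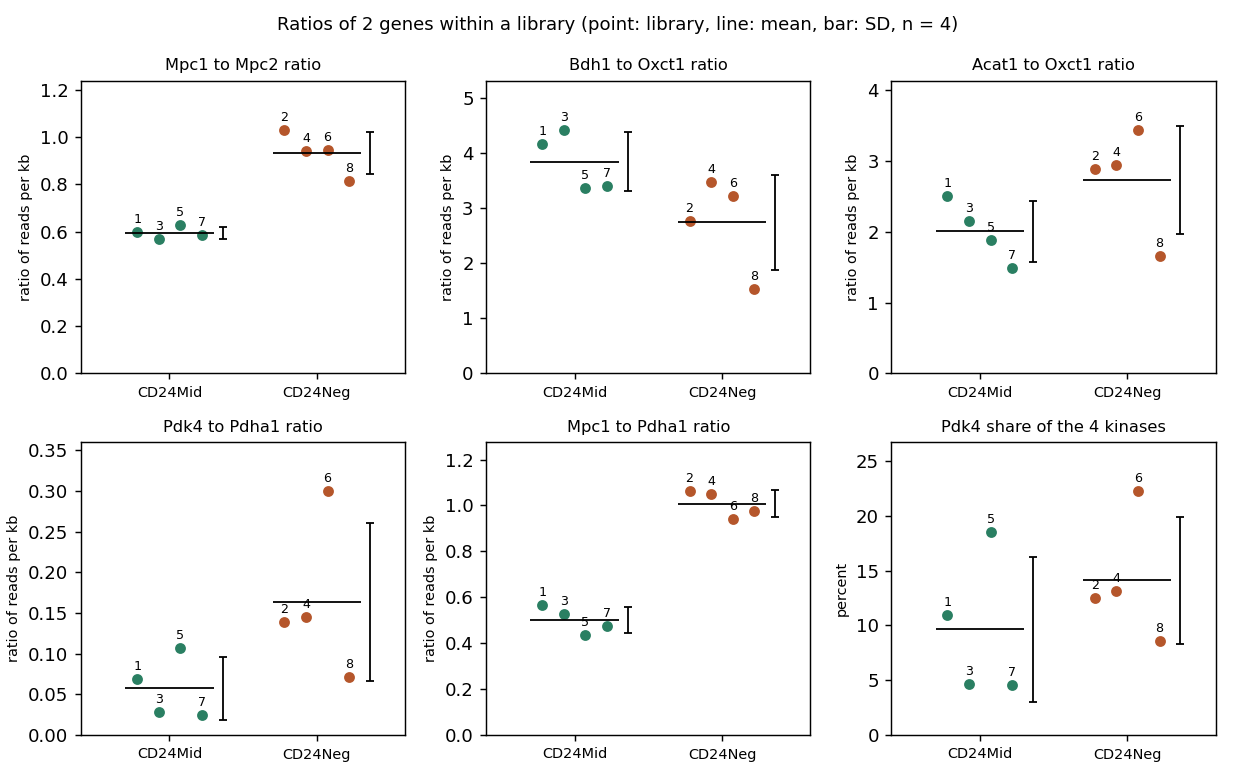
Ratios of member genes computed within each library from gene-unique reads per kilobase, the last as a percentage of the 4 kinases, with points labelled by library number, lines at the mean and bars for the SD (n = 4 each). Mpc1 to Mpc2 and Mpc1 to Pdha1 separate the groups, and the other 4 overlap.

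Ordered by reads per kilobase, Bdh1 was the highest member in CD24Mid (163 ± 14.4 CPM per kilobase), above every other member in range, followed by Pdha1 (125 ± 4.62) and Mpc2 (106 ± 15.2), which overlapped. Acat1 (84.3 ± 9.59) overlapped Mpc2, and Mpc1 (62.7 ± 8.03), Oxct1 (42.7 ± 5.31) and Pdk4 (7.27 ± 5.08) followed without overlap. This order is on gene-unique reads. Estimated reads were 1.18 to 1.22 times the unique reads for Mpc1 and 0.999 to 1.006 times for Acat1. On unique reads Mpc1 reached 73.2 CPM per kilobase in CD24Mid 1, and Acat1 was lowest at 75.2 in CD24Mid 7. On estimated reads Mpc1 and Acat1 therefore overlap in CD24Mid, and their order is not resolved. The lack of overlap between them holds for unique reads only. In CD24Neg, Mpc2 (122 ± 1.28), Mpc1 (114 ± 9.75), Pdha1 (113 ± 8.82), Acat1 (102 ± 8.37) and Bdh1 (102 ± 9.37) each overlapped the next. Oxct1 (39.9 ± 12.6) and Pdk4 (19.1 ± 12.6) lay lower and overlapped each other. All values are SD with n = 4 libraries. The order of the first 5 in CD24Neg is therefore not resolved.

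Of 4 genes measured in the list for ketone body use, Bdh1 was higher in CD24Mid, beside 35.5% of all genes. The other 3, Oxct1, Acat1 and Aacs, did not pass, while 69.8% of all genes were called. Aacs, which activates acetoacetate in the cytosol, averaged 51.0 ± 3.23 CPM against 35.6 ± 12.6 CPM (SD, n = 4 each, CD24Mid first, edgeR adjusted p = 0.061) and passed without CD24Neg 2 (0.014) or CD24Neg 6 (0.022). Aacs also passed as higher in CD24Mid by DESeq2 (adjusted p = 0.048), without a filter (0.037), without mitochondrially encoded genes (0.047), and with upper-quartile or no scaling. Bdh2 had 0 to 2 reads per CD24Mid library and 2 to 16 per CD24Neg library.

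Pdk4 stood out among the members for its spread inside a group. The highest library exceeded the lowest 4.80-fold in CD24Mid and 4.98-fold in CD24Neg. The SD of its log2 CPM within groups was 1.01, against a median of 0.231 over all genes tested, of which 98.4% varied less. The other 6 members ranged from 0.082 to 0.211.

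Libraries 7 and 8 were the lowest of their groups for Pdk4. Of the 12 genes in a list of PPAR targets, 8 had that order, against 11.2% of all genes tested. It was not confined to that list. The order also held for 3 of the 7 members (Acat1, Pdk4 and Pdha1) and 2 of the 4 kinases (Pdk2 and Pdk4). Among citrate cycle genes 4 of 16 had it, and among the 10 listed for other fates and sources of pyruvate 0 did. The order was picked after the values of Pdk4 were seen, and the PPAR target list includes Pdk4. Cyp4a10, a fatty acid hydroxylase, had 41, 11, 66 and 3 reads in CD24Mid libraries 1, 3, 5 and 7 and 60, 147, 126 and 14 reads in CD24Neg libraries 2, 4, 6 and 8. Slc25a20, which carries acylcarnitine into mitochondria, was at 49.0, 26.7, 47.7 and 17.8 CPM in CD24Mid and at 113, 124, 104 and 78.1 CPM in CD24Neg. Both were singled out after their values were seen. CD24Neg 8 was also among the libraries richest in lymphocyte reads, with T and NK lymphocyte markers summing to 353 CPM, while they summed to 8.08 CPM in CD24Mid 7. The part of lymphocyte RNA in this order was not tested.

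**Figure D4:**
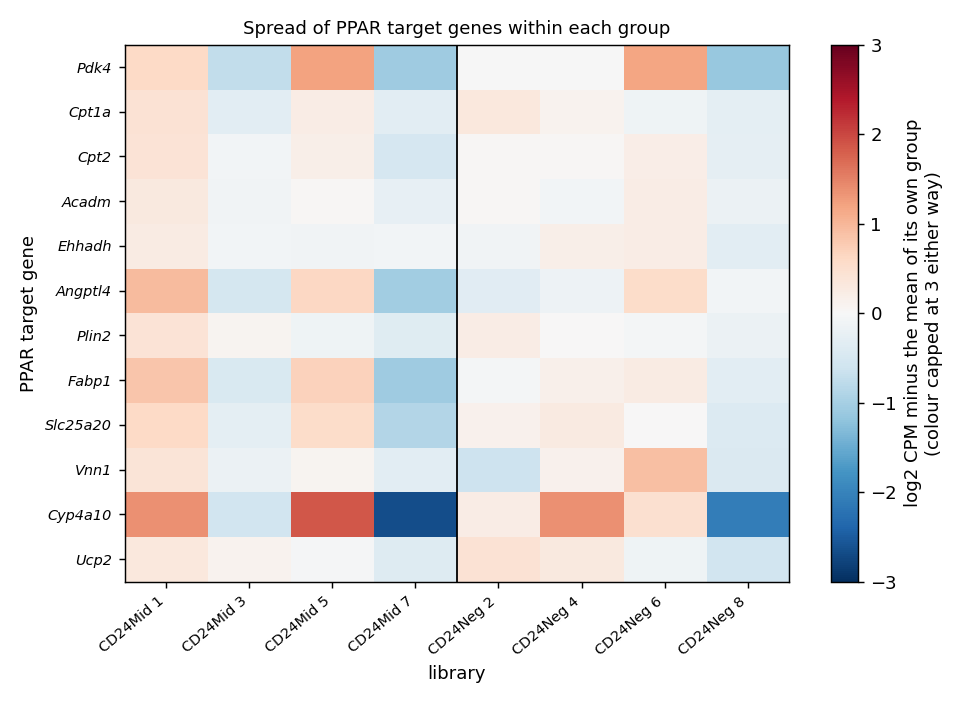
Deviation of log2 CPM from the mean of the library's own group for 12 PPAR target genes (rows) in 8 libraries (columns), with colours capped at 3. CD24Mid 7 and CD24Neg 8 are blue in most rows, and Cyp4a10 and Pdk4 show the strongest colours.

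Between groups and with TMM scaling, the PPAR target list leaned to CD24Neg. In it 10 of 12 genes were higher there and 1 in CD24Mid, beside 34.3% and 35.5% of all genes. Its median log2 fold change was -1.50. Vnn1, a pantetheinase, and Fabp1, a fatty acid binding protein, rose toward CD24Neg by 25.0-fold and 24.7-fold (highest edgeR adjusted p 3.07e-06). Of 8 PPAR factors and coactivators, 6 were higher in CD24Neg and 0 in CD24Mid. Creb3l3, a fasting-responsive factor, was 17.7-fold higher, the coactivator Ppargc1a 4.60-fold and the receptor Esrra 2.95-fold (highest edgeR adjusted p 8.35e-06). Fabp1 and Creb3l3 are also genes of mature enterocytes, whose markers summed to 1269 to 2125 CPM in CD24Mid and 21300 to 35320 CPM in CD24Neg. The share of this difference that follows cell type was not tested.

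Among the members, the direction of the changes of Mpc1, Mpc2 and Acat1 depended on how libraries were scaled. Mitochondrially encoded genes took 8.03% to 9.18% of reads in CD24Mid and 27.7% to 37.0% in CD24Neg. The median log2 fold change over all genes was 0.015 with TMM, 0.24 with upper quartiles and 0.95 when totals were left unscaled. Of the genes called, 50.8%, 61.4% and 84.4% were then higher in CD24Mid. Mpc1 stood at 0.062 on unscaled totals and -0.65 with upper-quartile scaling, Bdh1 at 1.28 and 0.57, and Pdk4 at -0.49 and -1.19, where it did not pass. Oxct1 and Pdha1 passed as higher in CD24Mid under both. Acat1 and Mpc2 turned to 0.70 and 0.71 on unscaled totals and passed there as higher in CD24Mid (edgeR adjusted p = 0.00022 and 6.3e-05). With upper-quartile scaling they were at -0.019 and -0.0049 and did not pass. A change of scaling shifts all genes alike, so a member's difference from the median of all genes is fixed by construction and is given as a description. The difference from that median was -0.89 for Mpc1 and 0.33 for Bdh1 under each of the 3 scalings, and -1.44 to -1.43 for Pdk4. It was -0.26 to -0.24 for Acat1 and Mpc2 and 0.11 to 0.15 for Oxct1 and Pdha1.

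**Figure D5:**
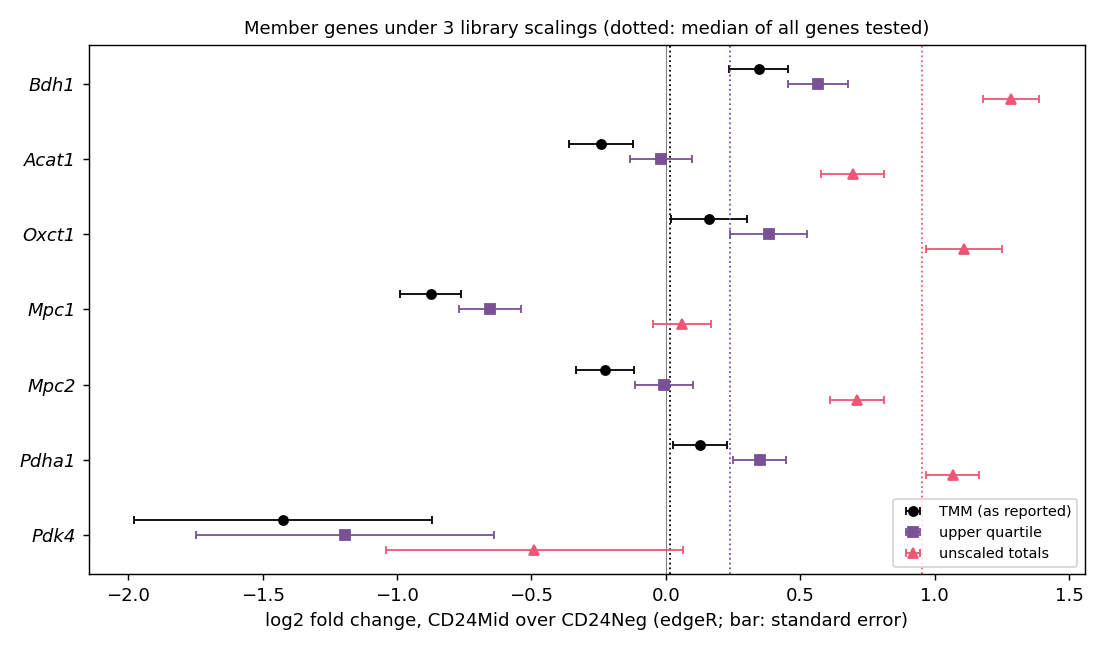
Log2 fold change (CD24Mid over CD24Neg) of the 7 members by edgeR with TMM, upper-quartile or no scaling, with standard errors as bars and the median of all genes tested under each scaling as a dotted line. The points shift together with the median. Mpc1, Mpc2, Acat1 and Pdk4 lie left of their dotted line under all 3, with Mpc1 and Pdk4 farthest from it.

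For each member the 2 genes with the most similar profile were found among 7440 candidates, by the root mean square difference of log2 CPM centred on each gene's mean over the 8 libraries. Mpc1 was closest to Mtfr1l (0.036) and Pex19 (0.038), and Bdh1 to Mrpl36 (0.045) and Phf5a (0.048). Mpc2 was closest to Ccdc124 (0.050) and Eif4e2 (0.055), Pdha1 to Faf2 (0.041) and Mettl9 (0.058), Acat1 to Nr2f6 (0.063) and Rgp1 (0.064), and Oxct1 to Eif2s2 (0.092) and Ptk2 (0.10). No gene came as near to Pdk4, for which Retsat (0.56) and Epas1 (0.58) were closest.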

How the data were processed

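RNA from sorted cells was sequenced in 8 libraries prepared with a TruSeq RNA kit, per the labels' protocols. Reads were aligned with Bowtie 0.12.8 to NCBIM37, per the submitters' processing notes. The column names are those of MMSEQ; strand setting and annotation release: not given in the sources used here. Overlapping and antisense genes therefore cannot be told apart. The authors deposited counts of fragments unique to 1 gene, without normalisation, which are the main measurement. The authors also deposited log estimates that include shared fragments, read here as the natural log of fragments scaled for length and mapped total (slope on unique reads 0.966 to 0.981), and the effective length in bases.

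Symbols were matched for 32897 of 37620 gene IDs. Groups came from the sample titles. The test on counts used edgeR 4.0.16 under R 4.3.3 (TMM, filterByExpr, robust quasi-likelihood, group only). SE is the log2 fold change divided by the root of F. DESeq2 1.42.0 and limma 3.58.1 served as alternatives, and SciPy 1.17.1 ran the exact two-sided permutation tests. The edgeR script was tested on simulated data. Intervals cover the spread between these libraries. A gene with no read was limited to 0.12 to 0.38 CPM (3 counts, counting error only).

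Members and gene lists were chosen with earlier results of these data known. Named genes are all members, the genes of the ketone, transport, pyruvate dehydrogenase and lipoate lists, up to 3 in each direction of the other pathway lists (largest change among called genes without overlap), sort genes, markers, and the 2 nearest profiles of each member (mean log2 CPM of at least 4, predicted genes left out). Some genes of these lists are not reported here and were left out of the lists' counts.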

Additional observations from a re-analysis of the deposited data

Results flagged for a closer look

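Acat1 in CD24Mid replicate 1 stood apart at 216 CPM, with the other 3 CD24Mid libraries close together at 175 to 179 CPM. Its gap to the nearest library was 0.888 of the range of the group, above the 95% critical value of Dixon's test for 4 samples. Values of 26 groups were checked in this way, and chance flags about 1 in 20.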

How the results depend on the processing

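No paired analysis was possible because CD24Mid and CD24Neg share no replicate numbers in the labels. Whether consecutive numbers mark libraries of the same animals was not given in the sources used here. Of 140 values for the 7 members under the alternatives, 111 kept their direction and call, 11 newly passed, 12 no longer passed and 6 changed direction. All values here are log2 fold changes, CD24Mid over CD24Neg. On unscaled totals, then by limma on the deposited estimates, Mpc1 turned to 0.062 and 0.064, Mpc2 to 0.71 and 0.70, and Acat1 to 0.70 and 0.63. Mpc2 and Acat1 passed as higher in CD24Mid under both, and Mpc1 under neither. In the same order Oxct1 passed at 1.11 and 1.11, Pdha1 passed at 1.07 and 1.05, and Pdk4 did not at -0.49 and -0.52. Genes called higher in CD24Mid numbered 8955 and 8554, and higher in CD24Neg 1660 and 1637, beside 4557 and 4410 as reported. With upper-quartile factors Oxct1 (0.38) and Pdha1 (0.35) passed and Pdk4 (-1.19) did not. Pdk4 also failed without a filter on low counts (-1.33) and by DESeq2 (-1.43), and Bdh1 failed on estimated counts (0.24). With TMM factors on the deposited estimates Acat1 passed (-0.31), and without CD24Neg 2 and 8 Oxct1 passed (0.37). Both of these alternatives were chosen after seeing the data.

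Leaving out single libraries gave 0.29 to 0.42 for Bdh1, 0.086 to 0.35 for Oxct1, -0.32 to -0.12 for Acat1, -0.95 to -0.80 for Mpc1, -0.29 to -0.16 for Mpc2, -1.93 to -0.82 for Pdk4 and 0.11 to 0.22 for Pdha1. The totals were 4346 to 4797 and 4057 to 4430. Of other genes, on unscaled totals and by limma on the deposited estimates, values turned for Bsg (0.19 and 0.17), Pdhb (0.82 and 0.80), Dlat (0.92 and 0.95), Dld (0.67 and 0.66), Pdk3 (0.94 and 0.90) and Pdp2 (0.50 and 0.49). Upper-quartile factors turned Pdhb (0.093), Dlat (0.20) and Pdk3 (0.22). Without mitochondrially encoded genes Dlat was 0.011 and Pdk3 0.027, and without a filter they were 0.085 and 0.097. Dlat was 0.0049 by limma with TMM factors, and without CD24Neg 2 and 8 Dlat was 0.049 and Pdhb 0.028. With single libraries left out, Dlat ran from -0.048 to 0.087 and Pdk3 from -0.021 to 0.070. The cause of these changes was not tested, apart from the shift of the median of all genes. Pdk2 did not pass by limma on the deposited estimates (-0.49). Depth limits genes with few reads, such as Bdh2 and Cyp4a10, and 4 libraries a group limit the exact tests to p = 0.0286 or above.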
